A study of Mus musculus with 20 samples.

Results

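The collagen chain genes of the mouse aorta were taken as the genes whose symbol reads Col, a number, a and a number, as in Col1a1, and that had at least 1 array probe set carrying a single gene symbol. There were 42 such genes of 26 collagen types among 18193 genes with a symbol of their own. They had 82 probe sets, and 15 of the genes rested on 1 probe set. Each gene was followed through its brightest probe set, as log2 of the deposited signal plus an offset of 72. A gene was tested when its mean over all arrays reached the median of all probe set means, a log2 level of 8.73 or a signal of 352. This filter passed 25 chains of 14 types, out of 11081 genes that passed in all.

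The study measured total RNA of whole aortas on Affymetrix Mouse Genome 430 2.0 arrays, with 20 arrays in 7 groups, and each array held RNA pooled from 8 aortas. Adult C57BL/6J mice ate standard chow (3 pools, labelled as vehicle controls) or food carrying rosiglitazone, a thiazolidinedione drug that activates the nuclear receptor PPARγ. The drug groups received 3 mg/kg/day for 2 days (3 pools), 3 mg/kg/day for 14 days (3 pools), 10 mg/kg/day for 2 days (3 pools) or 10 mg/kg/day for 14 days (2 pools). A separate experiment on standard chow compared adult mice with a gene-targeted P465L knock-in at the endogenous PPARγ locus, a dominant-negative form of the receptor (3 pools), with wild-type littermates (3 pools). The strain and zygosity of these mice are not given in the sources used here. Since pools and not single mice were hybridized, p-values measure the spread between pools, and the number of arrays limits the precision.

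Collagens are triple helices of α chains that are wound together in the endoplasmic reticulum, secreted, trimmed by proteases and cross-linked outside the cell. Fibrillar collagens of types I, III and V form the fibrils that give the aortic wall its tensile strength, type IV forms the mesh of basement membranes around smooth muscle cells and under the endothelium, and type VI forms beaded filaments between them. Fibril-associated collagens such as types XII and XIV decorate the surface of fibrils, type VIII forms a short-chain network in the vessel wall, and the multiplexins XV and XVIII lie in basement membrane zones.

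Replicate arrays of a group correlated between 0.964 and 0.988 over the 11081 tested genes, and array medians over all probe sets ranged from 321.3 to 450.7. All 8 smooth muscle markers, all 6 fibroblast, all 6 endothelial and all 6 macrophage markers passed the filter. So did 4 Schwann cell markers of 4 on the array, 5 of 6 adipocyte, 5 of 6 skeletal muscle, 5 of 6 cardiac muscle and 3 of 8 chondrocyte markers. In whole aortas, fewer cells of a type and less RNA per cell cannot be told apart.

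The chains covered a wide range of signal. Col3a1, the single chain of type III collagen, had a mean signal of 92452 over the 20 arrays, and Col1a2 and Col1a1, the chains of type I, had 81725 and 38905. The Col3a1 probe set ranked between 18 and 44 among all probe sets of an array, and that of Col1a2 between 39 and 114. Probe sets differ in how brightly they report a transcript, so this order describes the array and not the amounts of the chains.

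By class, 7 of 11 fibrillar chains passed the filter, namely Col1a1, Col1a2, Col3a1, Col5a1, Col5a2, Col5a3 and Col27a1. All 6 chains of type IV passed, together with 3 of 5 chains of type VI (Col6a1, Col6a2 and Col6a3) and 4 of 9 fibril-associated chains (Col12a1, Col14a1, Col16a1 and Col19a1). So did 2 of 3 short-chain network chains (Col8a1 and Col8a2), both multiplexins (Col15a1 and Col18a1) and 1 of 4 transmembrane chains (Col23a1). The dimmest chain that passed was Col23a1 at a mean signal of 454. Closest under the filter were Col9a1 at a log2 level of 8.62, Col7a1, the anchoring fibril chain, at 8.54 and Col22a1 at 8.51.

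Below the filter lay the cartilage chains Col2a1, Col9a1, Col9a2, Col9a3, Col11a1 and Col11a2, and Col10a1, the collagen of hypertrophic cartilage. The others were Col6a4, Col6a5, Col7a1, Col13a1, Col17a1, Col20a1, Col22a1, Col24a1, Col25a1 and Col26a1. Col2a1 had a mean signal of 87.2, Col10a1 of 28.2 and Col24a1 of 27.3. No detection calls were used, so a signal this low was not told apart from that of an unexpressed gene, and these chains were not tested.

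**Figure D1:**
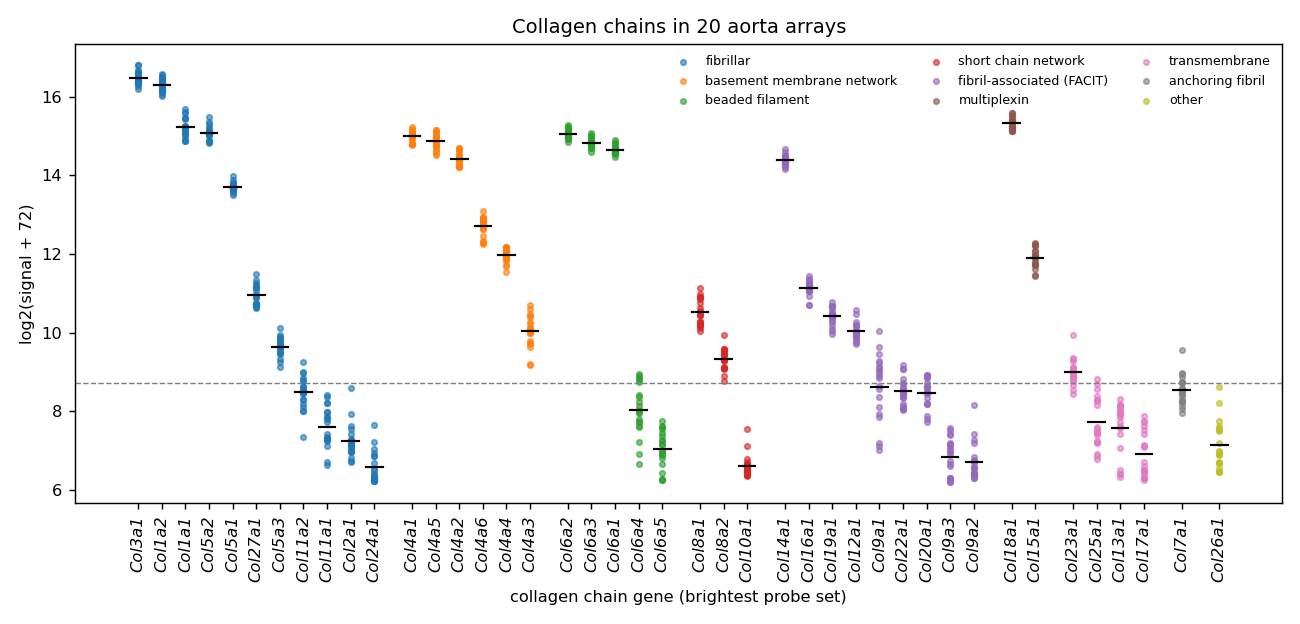
Level of each of the 42 collagen chains on the 20 arrays, as log2(signal + 72) of its brightest probe set, grouped by class. Each point is an array, black bars are means over the 20 arrays, and the dashed line is the filter at 8.73. Col3a1 and Col1a2 lie highest, with means of 16.49 and 16.31. The means of the cartilage chains lie under the line, with most arrays of Col9a1 and some of Col11a2 above it.

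Within groups the tested chains were steady. Their median within-group standard deviation was 0.14 on the log2 scale, from 0.09 for Col6a1 to 0.45 for Col4a3, against a median of 0.19 over all tested genes. The median span from the lowest to the highest of the 7 group means was 0.40 for the chains and 0.43 over all tested genes. The group fed 3 mg/kg/day for 2 days had the highest mean for 11 of the 25 chains, among them 4 of the 7 fibrillar chains, and for 13.8% of all tested genes.

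Rosiglitazone was compared first in each of the 4 drug groups against the same 3 chow pools. No chain passed an adjusted p of 0.05 in any of them (limma, Benjamini-Hochberg over the 11081 genes). Over all tested genes, 0% were called at 3 mg for 2 days, 0% at 3 mg for 14 days, 0.505% at 10 mg for 2 days and 0.271% at 10 mg for 14 days. Chains with an unadjusted p under 0.05 numbered 7, 2, 2 and 2 of 25 in that order, against 8.83%, 8.27%, 15.2% and 12.6% of all tested genes.

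At 3 mg for 2 days, 6 of the 7 fibrillar chains had a positive change and none passed the test, while Col27a1 was at -0.12 with overlapping pools. Of the 25 chains, 7 had all 3 drug pools above all 3 chow pools and 0 had them all below, where 5.09% of all tested genes lay wholly above and 6.91% wholly below. These chains were Col1a1, Col1a2, Col3a1, Col4a1, Col5a1, Col5a2 and Col5a3. The median log2 fold change was 0.32 over the 7 fibrillar chains, 0.08 over the 25 chains and -0.02 over all tested genes. With quantile normalization, which gives all arrays the same distribution, the fibrillar median was 0.10, with 6 of 7 chains above 0.

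Col1a1 (chr11:94936224-94953042, GRCm38.p6), the chain present in 2 copies in most type I trimers, had signals of 45133, 33729 and 29771 in the chow pools. The pools given 3 mg for 2 days had 48972, 50161 and 52473, all above the highest chow pool. The log2 fold change was 0.50, with an SE of 0.12, an unadjusted p of 0.0006 and an adjusted p of 0.302. A dimmer probe set for the same gene gave 0.55 with overlapping pools. It read 6521.2, 3338.5 and 3726 in chow and 5921.8, 5916.3 and 7464.6 in the drug pools. Chow pool A was the highest of the 3 chow pools. Without it the change was 0.67 and the adjusted p 0.045.

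Col1a2 (chr6:4505618-4541543), its partner chain, had 81536, 71916 and 66291 in chow and 98352, 91030.3 and 84608 after 3 mg for 2 days. The change was 0.32 (SE 0.11, adjusted p = 0.433), and 0.50 in a dimmer probe set. For Col3a1 (chr1:45311538-45349706) the chow pools had 86886, 83201 and 75639 and the drug pools 115083, 105232 and 92853, a change of 0.35 (SE 0.11, adjusted p = 0.356). In the brightest probe set of both genes the pools of the 2 groups did not overlap, nor did they in the next Col1a2 probe set. A dimmer Col3a1 probe set overlapped, at 7602.8, 8183.1 and 8707.6 in chow and 8195.6, 10401.1 and 12381 in the drug pools. The dimmer probe sets of Col4a1, Col5a1, Col5a2 and Col5a3 overlapped as well. Quantile normalization left 0.09 for Col1a2, 0.11 for Col3a1 and 0.38 for Col1a1.

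Col5a3, the least widespread chain of type V collagen, stood apart from chow in all 4 drug groups. The 250 bases upstream of its first listed RefSeq start on GRCm38.p6 are shown. They were chosen because no other tested chain had its 11 drug pools all on 1 side of the chow pools. The gene span ends at 20815117, so part of the window lies inside it. Capitals mark CCAAT and GGGCGG boxes on either strand.
Col5a3 (chr9:20815068-20815317, minus strand): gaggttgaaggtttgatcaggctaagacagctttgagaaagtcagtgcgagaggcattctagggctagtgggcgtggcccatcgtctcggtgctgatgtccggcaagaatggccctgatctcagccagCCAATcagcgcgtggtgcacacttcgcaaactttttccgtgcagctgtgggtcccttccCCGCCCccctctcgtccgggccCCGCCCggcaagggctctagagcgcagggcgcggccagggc
The window held 1 CCAAT box and 2 GGGCGG boxes, no TATAAA, and no PPAR direct repeat, searched on both strands as AGGTCA, any base and AGGTCA again. Of 32851 RefSeq promoter windows, 33.9% held CCAAT, 12.4% TATAAA, 32.7% GGGCGG and 0.0335% the direct repeat. Of the 33 collagen genes with a window, 13, 5, 20 and 0 had a match in any of their listed windows. These counts are per gene and the shares are per window, so they cannot be compared directly. A match is a string of letters and not a bound site.

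Col5a3 signals in chow were 571, 486 and 539.6. They were 867, 877 and 1048 after 3 mg for 2 days and 788, 776 and 625 after 3 mg for 14 days. They were 676, 824 and 650.4 after 10 mg for 2 days and 646 and 719 after 10 mg for 14 days. Every drug pool lay above every chow pool. The changes were 0.73 (SE 0.15), 0.40, 0.38 and 0.32 in that order, with adjusted p of 0.302, 0.5, 0.24 and 0.452. Averaged over the 4 groups the change was 0.46 (SE 0.12, 95% interval 0.21 to 0.71, adjusted p = 0.104). In this average 0.803% of all tested genes had all drug pools above chow and 1.26% below, 0.433% were called, and 6 of 25 chains against 14.2% of all genes had an unadjusted p under 0.05.

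Mice without the drug also had more Col5a3 signal than the chow pools. The wild-type littermates had 709, 726 and 709.7 and the P465L mice 823, 737 and 904, all above chow. The second Col5a3 probe set was dim, between 5.4 and 131.3, and the mean of both probe sets gave a change of 0.04 for the drug average. Weighting arrays by their quality gave an adjusted p of 0.0312.

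**Figure D2:**
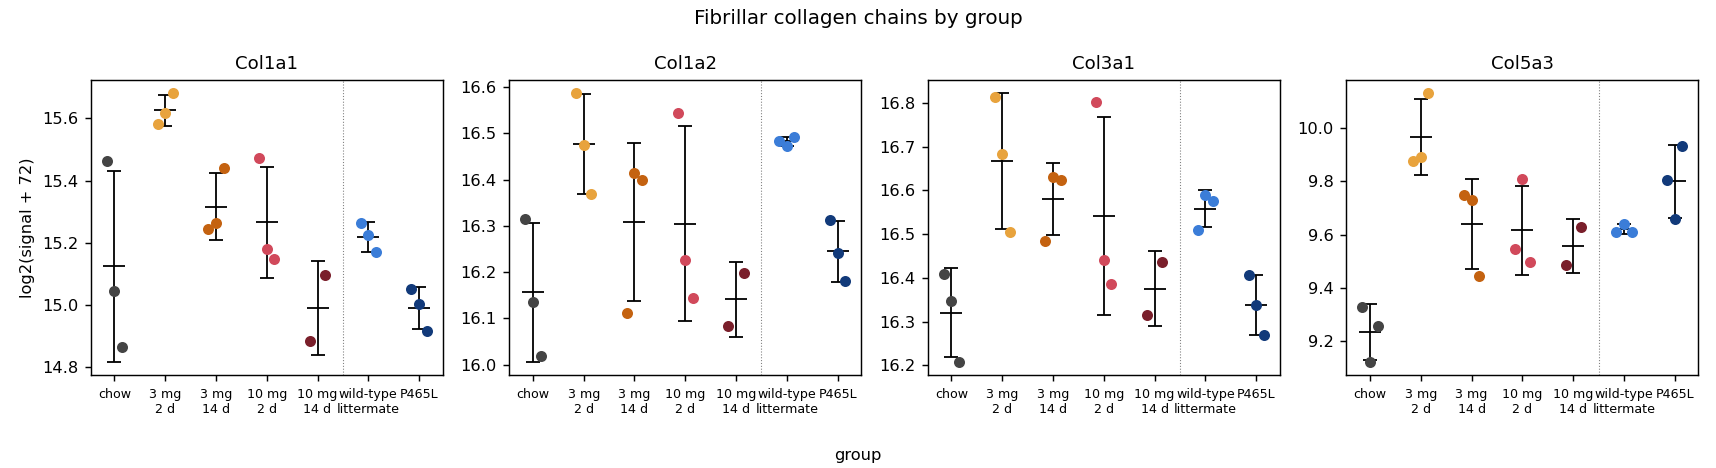
Levels of Col1a1, Col1a2, Col3a1 and Col5a3 in the 7 groups, as log2(signal + 72). Points are pools and bars are group means with SD. All 3 pools given 3 mg for 2 days sit above the chow pools in each panel, and for Col5a3 so do all other pools.

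The other drug groups gave smaller shifts. At 3 mg for 14 days, 5 chains lay wholly above chow (Col3a1, Col4a4, Col5a2, Col5a3 and Col6a1) and 0 wholly below, against 6.13% and 7.49% of all genes. Col3a1 there had 91628, 101436 and 100863, a change of 0.26 (adjusted p = 0.538). Col23a1, a transmembrane collagen, had 571, 433 and 299 against 581, 906 and 441 in chow, a change of -0.48 (adjusted p = 0.645) with overlapping pools.

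At 10 mg for 2 days, 3 chains lay wholly above chow (Col4a5, Col5a3 and Col6a1) and Col4a6 wholly below, against 10.2% and 13.5% of all genes. Col4a5, a basement membrane chain, had 34856, 33393 and 36634 against 27631, 25792 and 32942 in chow, a change of 0.29 (adjusted p = 0.192). A dimmer Col4a5 probe set overlapped, at 8409, 8749.8 and 7655.5 against 7173, 7751.4 and 7731.5 in chow. Col3a1 had 114096, 88830.4 and 85511, a change of 0.22 (adjusted p = 0.329), with pool A the highest and pool C inside the chow range.

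At 10 mg for 14 days more chains lay below chow than above. Both pools were below all chow pools for 8 chains (Col14a1, Col15a1, Col16a1, Col18a1, Col4a6, Col5a1, Col6a2 and Col6a3) and above them for Col5a3. With 2 pools against 3, 20.3% of all tested genes were wholly lower and 14.8% wholly higher. Col4a6, a basement membrane chain, had 6509 and 6305 against 7867, 7457 and 8737, a change of -0.32 (adjusted p = 0.226). Col15a1 had 2772 and 3064 against 3934, 3452 and 3955, a change of -0.36 (adjusted p = 0.381). The fibrillar median was -0.03, and 0.01 once arrays were centred on their medians. The 6 fibroblast markers had mean centred levels of -0.26 and -0.12 in these pools, both below 0.16, 0.13 and -0.07 in chow, and summed to 140523 to 159399.8 against 153275 to 180179. The 8 smooth muscle markers summed to 344598 to 385025 against 353461 to 404539. The 6 cardiac muscle markers were at 1.66 and 0.00, with pool A apart from chow at -0.11, 0.44 and 0.13. Their part in the lower chain levels was not tested.

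Averaged over the 4 drug groups, 13 of 25 chains had a positive change, and the median was 0.00 against -0.02 over all genes. After Col5a3, the smallest p-values belonged to Col3a1 (0.22, 95% interval 0.04 to 0.40, adjusted p = 0.242) and Col4a6 (-0.19, interval -0.35 to -0.03, adjusted p = 0.261). Type I chains were at 0.17 for Col1a1 (interval -0.03 to 0.38) and 0.15 for Col1a2 (-0.03 to 0.34), and the type IV chains Col4a1 and Col4a2 at 0.15 (-0.04 to 0.34) and 0.06 (-0.11 to 0.23).

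Several chains were near 0 in this average. Type V had Col5a1 at 0.00 (95% interval -0.15 to 0.15) and Col5a2 at 0.09 (-0.09 to 0.26). Type VI had Col6a1 at 0.11 (-0.04 to 0.26), Col6a2 at -0.02 (-0.18 to 0.14) and Col6a3 at -0.02 (-0.18 to 0.14). Col18a1, the source of endostatin, was at -0.03 (-0.21 to 0.16), Col15a1 at -0.11 (-0.37 to 0.14) and Col8a1 at 0.01 (-0.25 to 0.27). Col12a1, which binds the surface of fibrils, was at -0.30 (-0.57 to -0.03, adjusted p = 0.298), and at 0.17 when its probe sets were averaged. That average included dim probe sets below the filter, at mean log2 levels of 6.97 and 6.96.

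Col14a1, another fibril-surface chain, gave different values by probe set. Its brightest probe set had 21549, 23044 and 19579 in chow, and the drug average differed by -0.01 (95% interval -0.17 to 0.16). The next probe set had 9134, 10620.0 and 10010.4 in chow and 7834 to 10119.7 in the 11 drug pools, a change of -0.21 (adjusted p = 0.219). When the probe sets of a gene were averaged, Col14a1 passed the threshold in the drug average (-0.58, adjusted p = 0.014) and in both 10 mg groups. That average gave equal weight to a dim probe set below the filter, at a mean log2 level of 7.39. This dim probe set had a mean log2 level of 8.21 in chow and 6.67 in the drug pools, so the call is not shown by the 2 brighter probe sets.

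The dimmest Col14a1 probe set, below the filter, was singled out after its values were seen and was not tested. It read 247, 134 and 323 in chow, 26.7, 48.3 and 29.7 after 3 mg for 2 days and 36.9, 25.4 and 37 after 3 mg for 14 days. It read 20.8, 19.6 and 20.4 after 10 mg for 2 days and 48.5 and 19.3 after 10 mg for 14 days. P465L pools read 209, 258 and 263, and wild-type littermates 267 ± 147 (SD, n = 3). All 11 drug pools lay below all 9 pools without the drug. This was so for 1 of the 82 collagen probe sets, for 52 of 34945 probe sets with a single symbol (0.149%) and for 2 of the 15556 of them below the filter (0.0129%). The part of the transcript that this probe set reads was not analysed here.

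Marker levels of other cell types moved beside these values. The 6 adipocyte markers on the array summed to 90119.9 to 143508 in chow, 148897 to 270779 and 154185 to 237483 after 3 mg for 2 and 14 days, and 187229 to 206197 and 181457 to 201404 after 10 mg. The 6 fibroblast markers summed to 153275 to 180179 in chow and 167318 to 182348 after 3 mg for 2 days, and the 8 smooth muscle markers to 353461 to 404539 and 363292 to 495461. The adipocyte sums were carried by Fabp4 and Adipoq, with mean signals of 103550.0 and 43682. With each marker weighted equally, the mean centred adipocyte levels overlapped, at -0.07, -0.03 and -0.61 in chow and 0.72, -0.31 and 0.23 after 3 mg for 2 days. No marker was at 0. Their part in the collagen values was not tested.

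**Figure D3:**
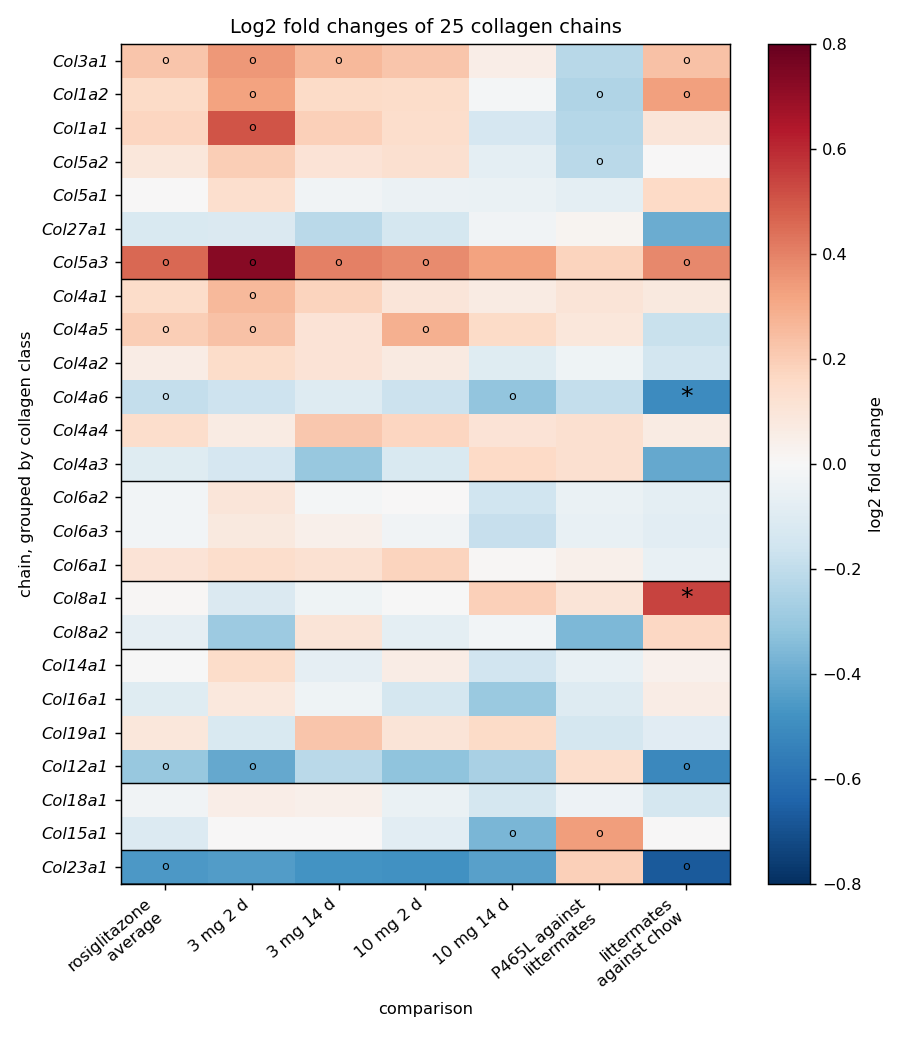
Log2 fold changes of the 25 tested chains in 7 comparisons, on a colour scale from red for higher to blue for lower in the first-named group. Circles mark an unadjusted p under 0.05 and asterisks an adjusted p under 0.05 (limma). Circles gather in the fibrillar rows at 3 mg for 2 days, and the 2 asterisks, for Col4a6 and Col8a1, are in the comparison of the untreated groups.

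Dose and time were compared among the 4 drug groups, without the chow pools. No chain passed the threshold for 10 against 3 mg (0% of all genes called), for 14 against 2 days (0%) or for their interaction (0%). At an unadjusted p under 0.05 there were 3 chains for dose, 2 for time and 0 for the interaction, beside 12.7%, 4.19% and 4.39% of all genes. The median over the 25 chains was -0.11 for dose and -0.09 for time, with 17 chains below 0 in each, against -0.01 and 0.00 over all genes. Quantile normalization gave -0.04 for dose and -0.07 for time.

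Col1a1 had the smallest p in both. After 3 mg for 14 days its pools had 38742, 39252 and 44357, after 10 mg for 2 days 45340.1, 37023 and 36235, and after 10 mg for 14 days 30143 and 34998. In this brightest probe set all of these lay below the pools given 3 mg for 2 days. Its difference was -0.34 for dose (SE 0.09, 95% interval -0.53 to -0.15, adjusted p = 0.231) and -0.29 for time (interval -0.48 to -0.10, adjusted p = 0.999). In the dimmer Col1a1 probe set the 10 mg 2 days pools, at 3543.7, 5879.6 and 6162.1, overlapped the 3 mg 2 days pools, at 5921.8, 5916.3 and 7464.6. For dose, Col6a3 followed with -0.16 (adjusted p = 0.361) and Col16a1 with -0.24 (adjusted p = 0.382). For time, Col14a1 had -0.22 and Col1a2 -0.17, each with an adjusted p of 0.999. In the interaction Col4a6 was at -0.20, Col19a1 at -0.29 and Col15a1 at -0.28, each with an adjusted p of 0.964.

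P465L mice were compared with their wild-type littermates. No collagen chain was called, where 0.018% of all tested genes were, and 3 chains against 7.43% of all genes had an unadjusted p under 0.05. Pools lay wholly above the littermates for 2 chains (Col15a1 and Col5a3) and wholly below for 6 (Col1a1, Col1a2, Col3a1, Col4a6, Col5a2 and Col8a2), against 7.35% and 6.99% of all genes. The fibrillar median was -0.22, with 2 of 7 chains above 0, and the median over all 25 chains was -0.04, with 0.01 over all genes.

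Col1a2 had 81307, 77445 and 74220.0 in P465L pools against 91588, 90896 and 92082 in littermates, a change of -0.24 (SE 0.11, 95% interval -0.47 to -0.01, adjusted p = 0.663). Col5a2, a chain of the common type V trimer, had 29446, 29876 and 29114 against 34115, 33621 and 35195, a change of -0.22 (adjusted p = 0.672). Col3a1 had 86752, 82726 and 78908 against 93259, 98520.2 and 97553, or -0.22 (adjusted p = 0.672). Col1a1 had 33874, 32762 and 30842 against 39307, 38214 and 36769, or -0.23 (adjusted p = 0.676). In the brightest probe set of all 4 genes every mutant pool was lower than every littermate pool. A dimmer Col1a1 probe set overlapped, at 4624.5, 3728.8 and 3597.6 in mutants and 4605.8, 4086.9 and 3488 in littermates. So did a dimmer Col5a2 probe set, at 4554.5, 4503 and 4762.7 against 4334.2, 4458.6 and 5948.4. The next Col1a2 probe set did not overlap, at 38057.7, 37330.5 and 36941.3 against 41532.2, 42754.1 and 40569, but the dimmest one did.

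These values depended on the scaling and the probe set. Under quantile normalization the fibrillar median was -0.02, Col1a2 was at -0.02, Col5a2 at -0.11, Col1a1 at -0.12 and Col3a1 at 0.03. A dimmer Col3a1 probe set read 9699, 11670.2 and 10617 in the mutants and 8807, 9646 and 10287 in the littermates, which overlap, a change of 0.15. The 8 smooth muscle markers summed to 363699 to 400296 in P465L pools and 442872 to 454668 in littermates, the 6 adipocyte markers to 99476 to 178488 and 161198 to 218004, and the 6 fibroblast markers to 172391 to 178865 and 169986 to 199628. Their part was not tested.

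Col15a1 was higher in the mutants. It had 4914, 4681 and 4766 in P465L pools and 3341, 4216 and 3825 in littermates, without overlap, a change of 0.34 (SE 0.15, 95% interval 0.02 to 0.65, adjusted p = 0.658). Quantile normalization gave 0.32, and the gene has 1 probe set.

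The difference between the P465L effect and the average rosiglitazone effect was tested in 1 contrast. No chain was called (0.108% of all genes were), and 6 chains against 10.2% of all genes had an unadjusted p under 0.05. The smallest p-values belonged to Col3a1 (-0.44, adjusted p = 0.239), Col1a2 (-0.39, adjusted p = 0.332) and Col1a1 (-0.40, adjusted p = 0.371). Over the fibrillar chains the median difference was -0.31, and -0.05 under quantile normalization.

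The wild-type littermates and the chow controls are both untreated. Of the 25 chains 2 were called between them, Col4a6 and Col8a1, with 6.49% of all genes called. At an unadjusted p under 0.05 there were 7 chains, beside 22.5% of all genes. Littermate pools lay wholly above chow for 5 chains (Col1a2, Col3a1, Col5a1, Col5a3 and Col8a1) and wholly below for 4 (Col23a1, Col27a1, Col4a6 and Col6a3), against 11.8% and 16% of all genes. The groups belong to different experiments, so strain and experiment cannot be told apart.

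Col4a6 (chrX:141165403-141474095) encodes a type IV chain that pairs with the Col4a5 chain in the basement membrane around smooth muscle cells. Its chow pools had 7867, 7457 and 8737 and its littermate pools 6349, 5045 and 5555, so the groups did not overlap. It fell by 0.50 on the log2 scale, with an SE of 0.10 and an adjusted p of 0.00367. Another probe set, at 6245, 6157 and 6544 in chow and 4606, 4430.1 and 4609 in littermates, gave -0.47. In the brightest probe set the P465L pools had 4814, 5035 and 4912, all below the littermates, a difference of -0.19 that did not pass the test (adjusted p = 0.673). The other probe set read 3515.1, 4467 and 3413 in P465L pools, which overlapped the littermates.

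Col4a5 and Col4a6 lie head to head on the X chromosome, with first listed RefSeq starts 1343 bases apart. The gene spans begin at 141475370 for Col4a5 and end at 141474095 for Col4a6, so each window below partly overlaps its gene. The 250 bases upstream of each start are shown, 5′ to 3′ on the strand of the gene, because Col4a6 was called and its neighbour was not. Capitals again mark CCAAT and GGGCGG boxes on either strand.
Col4a5 (chrX:141475169-141475418, plus strand): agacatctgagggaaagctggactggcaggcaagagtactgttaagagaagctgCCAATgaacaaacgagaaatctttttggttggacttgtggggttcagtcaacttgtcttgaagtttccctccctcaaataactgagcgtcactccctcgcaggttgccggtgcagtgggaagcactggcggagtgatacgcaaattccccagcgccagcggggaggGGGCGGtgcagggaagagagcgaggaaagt
Col4a6 (chrX:141474077-141474326, minus strand): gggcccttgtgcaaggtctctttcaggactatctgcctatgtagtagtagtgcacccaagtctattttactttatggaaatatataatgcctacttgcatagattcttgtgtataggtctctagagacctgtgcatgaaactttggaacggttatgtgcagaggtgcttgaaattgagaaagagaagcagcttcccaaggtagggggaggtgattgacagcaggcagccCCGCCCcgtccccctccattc
Col4a5 had 1 CCAAT box and 1 GGGCGG box in its window and Col4a6 had 1 GGGCGG box, while neither held TATAAA or the direct repeat.

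Col4a5 signals were 25336, 23625 and 27175 in littermates and 27631, 25792 and 32942 in chow, which overlap, a change of -0.18 (adjusted p = 0.322). The log2 level of Col4a6 minus that of Col4a5 was taken per pool, after both had been seen and with no test. In the brightest probe sets it was -1.80, -1.78 and -1.91 in the chow pools and between -2.56 and -1.98 in the 17 other pools. By these probe sets the chow pools lay apart from drug pools, littermates and mutants alike. Only the change between pools can be read from this, since each probe set has its own brightness. In the next probe set of each gene the chow pools did not lie apart. Chow pool B read 6156.9 for Col4a6 and 7751.4 for Col4a5 there, and 3 mg 2 days pool A read 5562.9 and 6574.6.

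Col8a1 (chr16:57624256-57754737) encodes a chain of type VIII collagen, which smooth muscle cells make after vessel injury. Its upstream window, shown because it is the other called chain, held 4 GGGCGG boxes, in capitals, and no CCAAT.
Col8a1 (chr16:57754738-57754987, minus strand): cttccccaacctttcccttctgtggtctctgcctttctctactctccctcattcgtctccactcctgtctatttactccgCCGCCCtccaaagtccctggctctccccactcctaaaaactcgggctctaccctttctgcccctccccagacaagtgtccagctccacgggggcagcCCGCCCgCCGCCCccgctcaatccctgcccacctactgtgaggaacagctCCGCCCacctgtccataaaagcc
The chow pools had 990.3, 1434 and 1327 and the littermates 1808, 1835 and 1840.1, all above chow. Col8a1 rose by 0.54 on the log2 scale, with an SE of 0.16 and an adjusted p of 0.0442. The P465L pools had 1945, 2193 and 1797, and the drug pools ran from 1046 to 1655. A dimmer probe set gave 767, 999 and 866 in littermates against 900.2, 791 and 836 in chow, a change of 0.05, and the dimmest of its 3 probe sets, at 108 or less in both groups, also overlapped. The Col8a1 call was lost without chow pool A (adjusted p = 0.19) or C, without any 1 littermate pool, and with a 25th percentile filter or no filter (adjusted p = 0.0589 and 0.0773).

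**Figure D4:**
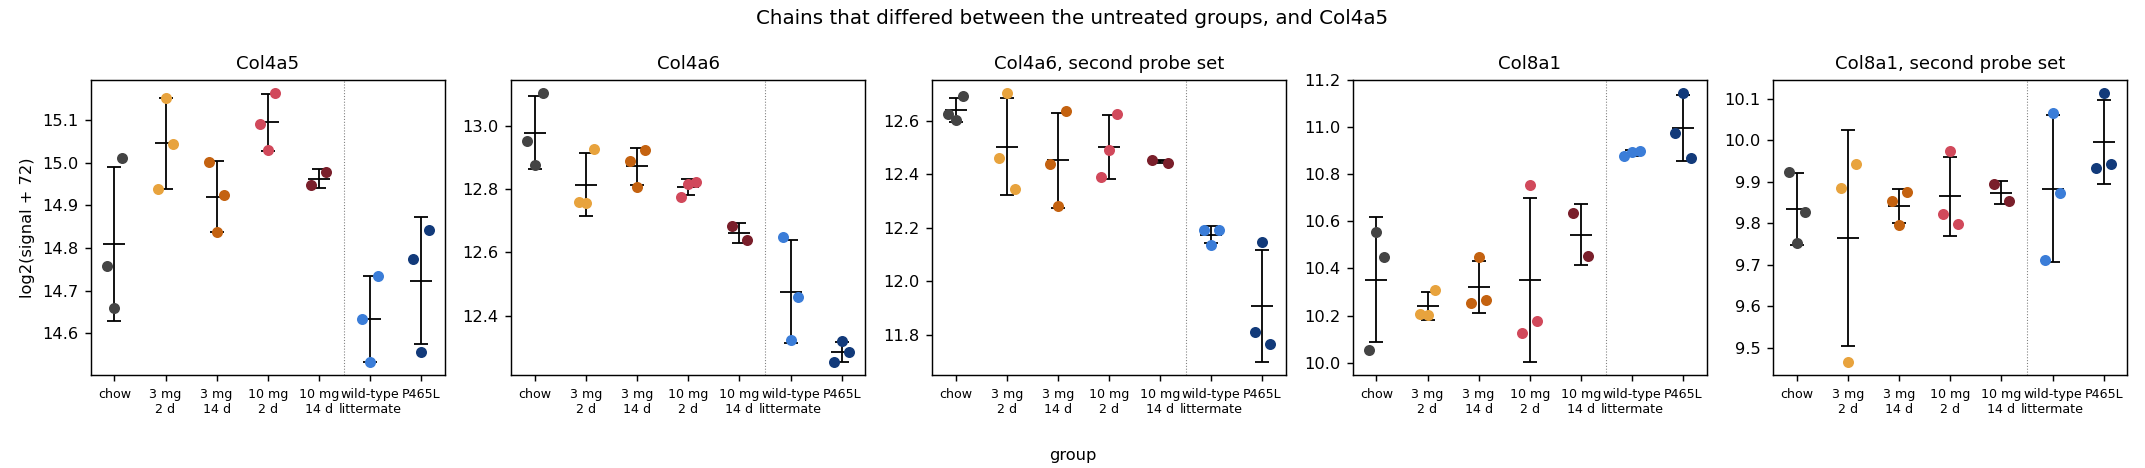
Levels of Col4a5, and of Col4a6 and Col8a1 with another probe set for each, in the 7 groups as log2(signal + 72). Points are pools and bars are means with SD. Both Col4a6 probe sets are lower in littermate and P465L pools than in chow, whereas the Col8a1 separation is seen in 1 of the 2 Col8a1 probe sets plotted.

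Short of the threshold, Col12a1 had 760.4, 947 and 811 in littermates against 939, 1448 and 1351 in chow, a change of -0.52 (adjusted p = 0.0631) with overlapping pools. Col1a2 had 91588, 90896 and 92082 in littermates, all above chow, a change of 0.33 (adjusted p = 0.0795), and 0.12 after quantile normalization. In 3 alternatives Col1a2 was called: median centring, array weights and omission of 10 mg 2 days pool A. Col12a1 was also called in 3: the replicate block, array weights and omission of chow pool A. Col3a1 was at 0.24 (adjusted p = 0.188), and at -0.02 after quantile normalization. The 6 skeletal muscle markers summed to 11304 to 61594 in littermates and 1551 to 24494 in chow, and their part in these values was not tested.

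Chains of the same trimer or of neighbouring genes were compared array by array after the mean of each group was taken away, for 6 pairs over 20 arrays. Pearson's r and Spearman's rho were taken, with two-sided permutation tests within groups and p-values adjusted over the 6 pairs by Benjamini-Hochberg. Col1a1 and Col1a2 gave r = 0.723 (permutation p = 0.0112, adjusted p = 0.0225) and rho = 0.710 (permutation p = 0.0125, adjusted p = 0.025), with r = 0.570 without the 2 arrays farthest from the median of Col1a1. Col4a1 and Col4a2, which form the most common type IV trimer and whose starts are 21 bases apart, gave r = 0.757 (permutation p = 0.00571, adjusted p = 0.02) and rho = 0.774 (permutation p = 0.00202, adjusted p = 0.0121), with r = 0.703 without the 2 arrays farthest from the median of Col4a1. Col6a1 and Col6a3, of the type VI trimer, gave r = 0.765 (permutation p = 0.00667, adjusted p = 0.02) and rho = 0.765 (permutation p = 0.00527, adjusted p = 0.0158), with r = 0.734 without the 2 arrays farthest from the median of Col6a1.

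For the other 3 pairs the adjusted p missed the threshold. Col6a1 and Col6a2, of the same trimer, gave r = 0.478 (permutation p = 0.0944, adjusted p = 0.113) and rho = 0.471 (permutation p = 0.0828, adjusted p = 0.124), with r = 0.558 without the 2 arrays farthest from the median of Col6a1. Col3a1 and Col5a2, neighbours on chromosome 1, gave r = 0.743 (permutation p = 0.0667, adjusted p = 0.1) and rho = 0.477 (permutation p = 0.133, adjusted p = 0.159), with r = 0.485 without the 2 arrays farthest from the median of Col3a1. Col5a1 and Col5a2, of the type V trimer, gave r = 0.336 (permutation p = 0.337, adjusted p = 0.337) and rho = 0.141 (permutation p = 0.634, adjusted p = 0.634), with r = 0.416 without the 2 arrays farthest from the median of Col5a1. Chains read on the same array also share its scaling.

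**Figure D5:**
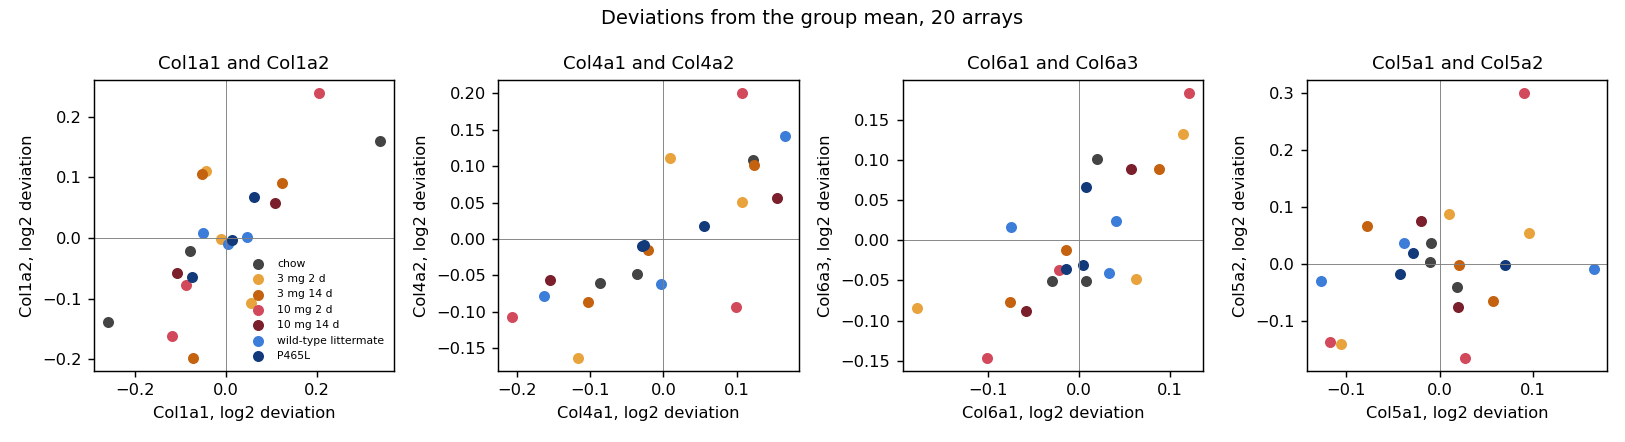
Deviation of each pool from its group mean, in log2 units, for 4 pairs of chains, with points coloured by group. The type I, type IV and type VI pairs rise together (r = 0.723, 0.757 and 0.765), while Col5a1 and Col5a2 scatter more widely (r = 0.336).

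Genes that fold, secrete, trim, cross-link, bind or degrade collagen were read beside the chains, and 65 of 77 on the array passed the filter. None was called in the drug average. The smallest p-values there belonged to Itgb1, the β chain of collagen-binding integrins (-0.28, adjusted p = 0.141), Lum, the fibril-spacing proteoglycan lumican (-0.36, adjusted p = 0.165), and Mrc2, a receptor that takes up collagen fragments (-0.33, adjusted p = 0.19). None was called in P465L mice, where Postn, Sparc and Bgn, whose proteins bind collagen, were at -0.29 (adjusted p = 0.452), -0.31 (0.634) and -0.24 (0.652). Bgn was at 0.01 under quantile normalization.

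Between littermates and chow, 7 of 65 partners were called, against 6.49% of all tested genes. Fmod and Dcn, proteoglycans of the fibril surface, rose by 0.36 (adjusted p = 0.0264) and 0.33 (adjusted p = 0.0437). The Dcn call was lost with quantile normalization, at 0.08 (adjusted p = 0.629), and with averaged probe sets, at 0.02 (adjusted p = 0.975). Mmp3, a matrix metalloproteinase, fell by 0.94 (adjusted p = 0.0003), and Furin, which activates matrix proteases, fell by 0.56 (adjusted p = 0.00595). Mrc2 fell by 0.61, the collagen receptor gene Ddr1 fell by 0.45, and Mmp14, a membrane-bound collagenase, fell by 0.41 (adjusted p = 0.0499). Of the 31 settings that gave a value, the main one included, Mmp14 was called in 7, Dcn in 14, Ddr1 in 23, Fmod in 26, Mrc2 in 28, and Furin and Mmp3 in 31. In all 7 the pools of the groups did not overlap.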

How the data were processed

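Total RNA of 20 aorta pools was hybridized by the authors to Mouse Genome 430 2.0 arrays, and MAS5 is named in the submitters' processing notes. The deposited intensity values are linear signals per probe set, each array scaled by the authors to a 2% trimmed mean of 1500, as the values show. Detection calls were not used here. Gene symbols came from the platform annotation: 34945 probe sets had 1 symbol, 932 several and 9160 none, and only the first were used.

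The brightest probe set per gene was taken as log2(signal + 72), 72 being the 20th percentile of all values. One model with 7 group means was fitted to all arrays with limma 3.58.1 (R 4.3.3; eBayes with a mean-variance trend, 13 residual degrees of freedom). Tests were two-sided and adjusted by Benjamini-Hochberg over 11081 genes. The fit was also run on simulated data with 100 genes changed per fold and independent normal noise. For the drug average 70 of 1.5-fold and 99 of 2-fold changes were recovered, with 11 false calls. For P465L 49 and 92 were recovered, with 9 false calls. The simulation held no effect shared by the genes of an array, so recovery in the real data may differ. Correlations used 100000 permutations within groups (Python 3.11.15). Array letters were not used to pair groups in the main model. Over 57 same-letter pairs the median r of deviations was 0.025, from -0.30 to 0.36, which does not exclude pairing between some groups.

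Named chains were those called or, failing 3, the 3 smallest p in each comparison, plus 15 structural chains. Members and lists were chosen with earlier results of these data known. Alternatives were the offset, filter, probe set rule, scaling, variance model, array weights, a replicate block and omission of each array. Sequences are RefSeq's on GRCm38.p6, which held 33 of the 42 genes. Where a gene had several listed starts, the first was used for the sequences shown and for distances between starts.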

Additional observations from a re-analysis of the deposited data

Results flagged for a closer look

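The brightest probe set of Col5a1, the main chain of type V collagen, went opposite ways in the drug groups at the ends of the design. After 3 mg for 2 days its pools, at 15142, 14265 and 13157, all lay above the chow pools, at 13090, 12837 and 12826. After 10 mg for 14 days both pools, at 12614 and 12274, lay below them. The log2 changes differed by 0.186. This difference was not tested and both groups were set against the same chow pools. The next Col5a1 probe set overlapped chow in both groups. It read 12298.1, 9980 and 10290.1 in chow and 12170.7, 14439.1 and 12599.6 after 3 mg for 2 days. After 10 mg for 14 days it read 10396.7 and 11197.4. The dimmest overlapped chow in the first group only. Of all tested genes, 5.09% lay wholly above chow at 3 mg for 2 days and 20.3% wholly below at 10 mg for 14 days.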

How the results depend on the processing

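Col4a6 was called for littermates against chow in all 31 settings that gave a value, the main one included, and Col8a1 in 17. The number of called chains stayed at 0 in the dose, time, interaction, P465L and P465L minus rosiglitazone comparisons under each alternative that was run. Averaging the probe sets of a gene gave 1 called chain, Col14a1, in the drug average and at 10 mg for 2 and for 14 days. For Col14a1 the averaged probe sets included a dim one below the filter. Array weights gave 1 called chain, Col5a3, in the drug average. Leaving out 1 array gave 0 to 1 chains at 3 mg for 2 days. For littermates against chow, averaged probe sets, no filter and a 25th percentile filter each gave 1 chain (Col4a6) in place of 2, and leaving out 1 array gave 1 to 3. Col8a1 was lost there without chow A or C, littermate A, B or C, 3 mg 14 days C, 10 mg 14 days A or B, or P465L A or B. It was also lost with array weights, which added Col12a1 and Col1a2. With the replicate letter as a replicate block 3 chains were called, Col12a1 being added, 5 partners were called in place of 7, and the other counts of called chains and partners were 0 as in the main analysis. Among partners, array weights gave 1 (Lum) in the drug average, 3 at 10 mg for 2 days and 1 (Postn) for P465L minus rosiglitazone, and averaged probe sets gave 1 (Mrc2) at 10 mg for 14 days. For littermates against chow, 3 partners were called with averaged probe sets and 4 without a variance trend in place of 7, and leaving out 1 array gave 3 to 9, 3 or 4 of them without any 1 chow pool and 3 without littermate B or C. The Mmp14 call was lost in 24 alternatives and the Dcn call in 17. Signs turned for Col5a3 with averaged probe sets (-0.0018 at 3 mg for 14 days, -0.0112 at 10 mg for 2 days and -0.0297 at 10 mg for 14 days), for Bgn in P465L mice (0.0107) and for the Col5a1 and Col5a2 correlation (-0.2457), both with quantile normalization. The cause was not tested. Fitting the arrays of 1 experiment alone gives no value for the comparisons that span both. Signals of probe sets below the filter limit what can be said of 17 chains.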
